A study of Mus musculus with 4 samples.

Results

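Among tdTom+ chondrocytes of the mouse spine, 779 cells were set apart by counts of Prg4, Smoc2 and Cilp2, and they are called Prg4/Smoc2/Cilp2 cells here. They were chosen by measured values. A cell had to hold over 750 UMIs (unique molecular identifiers, 1 for each captured RNA molecule) from over 500 genes, with mitochondrial counts under 7%, at least 1 UMI of the chondrocyte transcription factor Sox9 and at least 3 of the proteoglycan gene Acan. It also had to have fewer than 3 UMIs of Zfp804b and Dab1 together and fewer than 3 of the hypertrophy genes Ihh, Panx3, Prkg2 and Col10a1. Of the 2172 deposited cells, 1757 met the limits on depth and mitochondrial counts and 893 of these were such chondrocytes. The 779 cells had at least 2 UMIs of Prg4, Smoc2 and Cilp2, and more of these than of Sfrp5 and Adamtsl2 or of Chrdl2, Meox2 and Htr1f. The other gated chondrocytes were 63 Sfrp5/Adamtsl2 cells, 10 Chrdl2/Meox2/Htr1f cells and 41 cells that fell in no class.

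The cells came from vertebrae of the lower thoracic and upper lumbar spine, with 1 library for each of 4 conditions. Control mice were Prss56Cre/+;R26tdTom/tdTom;Nf1+/+ and mutant mice were Prss56Cre/Cre;R26tdTom/tdTom;Nf1fl/fl, each at 3 months and at 12-16 months of age. In both genotypes tdTomato marked cells that had expressed Prss56 and their descendants, and sorting removed CD45+, CD11b+, CD31+ and dead cells. Mutant mice carried 2 Cre alleles and control mice 1, so this difference and the Nf1 genotype cannot be told apart, and the number of mice in a library was not stated. With 1 library per condition there was no test of genotype or age: such differences are given as ratios with 95% intervals that cover counting error only.

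Fibrocartilage combines the collagen II and aggrecan matrix of cartilage with the fibrillar matrix of tendon and ligament. The fibrous ring of the intervertebral disc is a fibrocartilage, and its inner part is richer in chondrocyte-like cells. Prg4 encodes lubricin, a secreted mucin-like glycoprotein that lubricates the surface of articular cartilage and other sliding tissues. Smoc2 encodes a secreted calcium-binding protein of the SPARC family, and Cilp2 encodes a matrix protein related to the cartilage intermediate layer protein Cilp. Dcn encodes decorin, a small leucine-rich proteoglycan that binds collagen fibrils. The counts hold no position, so that disc cells could not be told apart from other cartilage of the collected vertebrae.

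The 779 cells were 386 in the 3-month control, 171 in the 3-month mutant, 62 in the 12-16-month control and 160 in the 12-16-month mutant library. They held 9771620 UMIs, from 744811 in the 12-16-month control to 5731989 in the 3-month control library. The median depth was 12840 UMIs per cell in the 3-month control, 10474 in the 3-month mutant, 9287 in the 12-16-month control and 7127 in the 12-16-month mutant library. No cell barcode was shared between libraries. One cell of the 12-16-month control library stood apart: it had 71954 UMIs, 9.66% of all UMIs of that library's Prg4/Smoc2/Cilp2 cells, while the deepest cell held 1.09 to 2.04% in the other libraries. Scrublet did not call it a doublet. Some values that rest on it are given with and without it, and others only with it. It held 91.0% of the Fmod, 75.6% of the Col1a1 and 65.5% of the Mgp UMIs of these cells in that library. Levels are given as counts per 1e6 UMIs (CPM), taken over all UMIs of the named cells in a library. Each molecule is counted once at its 3′ end, so levels of different genes do not scale with transcript length.

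Nf1, the gene floxed in the mutant mice, encodes neurofibromin, which switches off Ras. Its level in the Prg4/Smoc2/Cilp2 cells was 129 CPM in the 3-month control, 149 in the 3-month mutant, 137 in the 12-16-month control and 116 in the 12-16-month mutant library. The mutant level was 1.16 times the control level at 3 months (95% interval 1.01 to 1.32) and 0.85 times at 12-16 months (0.66 to 1.11). At 3 months the Nf1 level in the library labelled mutant was thus no lower than in the control library. Counts at the 3′ end need not register a deletion elsewhere in the gene, so they do not check the genotype labels. tdTomato was found at 6.99 to 9.07 CPM in the 4 libraries, and Prss56 was at 0.

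Prg4 carried most of the counts that defined the cells. It made up 96.7% of all UMIs of the 3 gate genes, and these made up 2.72 to 3.36% of all UMIs in the libraries. The level of Prg4 (chr1:150449412-150466165, minus strand, GRCm38) was 26879 CPM in the 3-month control, 26400 in the 3-month mutant, 27684 in the 12-16-month control and 32326 in the 12-16-month mutant library. The 4 libraries thus lay close together for Prg4 as a share of RNA. Smoc2 (chr17:14279506-14404790, plus strand) was at 464 CPM in the 3-month control, 434 in the 3-month mutant, 828 in the 12-16-month control and 731 in the 12-16-month mutant library. Cilp2 (chr8:69880369-69887687, minus strand) was at 416, 380, 329 and 526 CPM in the same order. Both 12-16-month libraries were above both 3-month libraries for Smoc2, and no such order was seen for Cilp2.

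**Figure D1:**
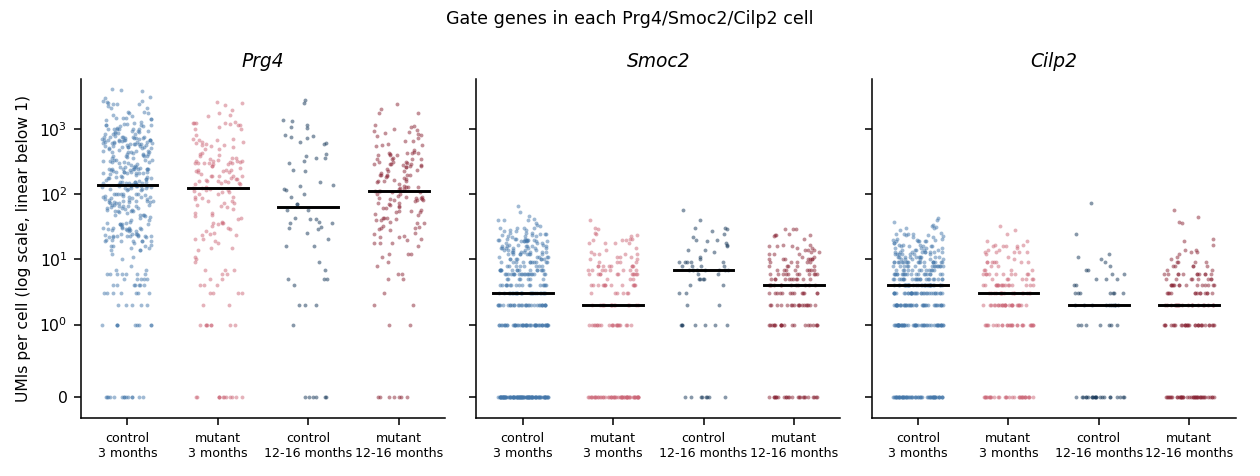
UMIs per cell (symmetric log axis) of Prg4, Smoc2 and Cilp2 in the 779 cells, 1 point per cell, by library, with the median as a bar. Prg4 medians lie between 64.5 and 137.5 UMIs and those of Smoc2 and Cilp2 between 2 and 7, and each gene has cells at 0 in every library.

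From cell to cell the gate genes varied widely. Prg4 was found in 740 of the 779 cells (95%), Cilp2 in 624 (80.1%) and Smoc2 in 587 (75.4%), and all 3 genes were found together in 461 cells (59.2%). The median was 126 UMIs of Prg4 per cell and the highest cell had 4209, whereas Smoc2 and Cilp2 did not exceed 66 and 73 UMIs. The 78 cells with most Prg4 held 49.8% of all Prg4 UMIs. In 416 cells (53.4%) Prg4 exceeded 1% of the UMIs of the cell. The plot of UMIs per cell shows this long range in each library.

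Few cells lay close to the limit of the gate. With exactly 2 UMIs of the 3 genes there were 9 cells and with 3 UMIs there were 6, while 700 cells (89.9%) had at least 10. Outside the gate, 28 chondrocytes had none of these UMIs, 30 had 1, and 56 had at least 2 but as many or more of another gene set. The sets were not exclusive, since 298 of the 779 cells (38.3%) also had Sfrp5 or Adamtsl2 and 437 (56.1%) had Chrdl2, Meox2 or Htr1f. Free RNA was measured in 83 cells of the hematopoietic lineage, which had at least 1 UMI of the marker Ptprc and none of Sox9 or Acan. Leaving out cells with Sox9 or Acan may have made the shares too low. Prg4 was found in 25.3% of these 83 cells (95% exact interval 16.4 to 36.0%). None held more than 2 of its UMIs. Their median was 9155 UMIs against 10822 in the Prg4/Smoc2/Cilp2 cells. Every cell with Prg4 was from a mutant library, 11 of 42 at 3 months and 10 of 28 at 12-16 months. The 3-month control had 0 of 12, but these were shallow (median 1497 UMIs, against 12840 in its Prg4/Smoc2/Cilp2 cells). The 12-16-month control library had only 1 hematopoietic cell, without Prg4. Free RNA was therefore poorly measured in both control libraries. Smoc2 was found in 1 of these 83 cells (1.20%), Dcn in 4 (4.82%), and Cilp2 in none, which allows a share of up to 4.35%. A cell with 2 Prg4 UMIs thus had no more than these cells, whereas the median Prg4/Smoc2/Cilp2 cell had 126.

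The cells carried the marker Dcn and the genes of cartilage. Dcn (chr10:97479609-97518143, plus strand), which the gate did not use, was found in 655 of the 779 cells (84.1%). Its level was 6948 CPM in the 3-month control, 6103 in the 3-month mutant, 17034 in the 12-16-month control and 18805 in the 12-16-month mutant library. Both 12-16-month libraries were above both 3-month libraries, also with the 12-16-month control at 14866 CPM without its deepest cell. The level of Cytl1, a secreted protein of cartilage, was 32351, 31947, 19246 and 32687 CPM in the same order of libraries, and it was found in 99.2% of the cells. Col2a1, the main collagen of cartilage, was at 3006 CPM in the 3-month control, 1453 in the 3-month mutant, 3181 in the 12-16-month control and 1609 in the 12-16-month mutant library, and was found in 88.2% of the cells. Without the deepest cell, which held 61.8% of the Col2a1 UMIs of the 12-16-month control library, the level there was 1345 CPM. Col9a1, which encodes a chain of the collagen that decorates collagen II fibrils, was at 7.76 to 43.1 CPM and was found in 14.9% of the cells.

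The tendon markers Scx and Tnmd and most notochord markers were low or near 0. Scx, a transcription factor of tendon progenitors, was at 16.9 to 26.7 CPM and Mkx, a transcription factor of tendon and outer annulus, at 56.9 to 91.3. Tnmd, the tendon protein tenomodulin, had 1 UMI over all 779 cells. Of the notochord genes, T had 2 UMIs, Krt8 had 2 and Krt19 had none, whereas Cd24a was at 393 to 510 CPM. The paper used Cd24a together with Sox9 to mark its disc chondrocyte cluster. Prg4, Smoc2, Cilp2, Sox9 and Acan chose the cells, so their presence was fixed by the gate. Of the label and chondrocyte markers outside the gate, Dcn and Col2a1 were found in most cells and Col9a1 in few. The whole tendon and annulus list summed to 2769, 2775, 3386 and 2943 CPM in the control and mutant libraries at 3 months and then at 12-16 months. Most of this was the immediate early gene Egr1, at 1681 to 1993 CPM, and Fmod, at 254 to 668. The deepest cell held 91.0% of the Fmod UMIs of the 12-16-month control library.

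Markers of 4 of 9 other cell types were near 0. The 10 hematopoietic markers summed to 3.31 to 33.6 CPM over the libraries, with Ptprc and Retnlg at 0. The 6 endothelial markers summed to 2.69 to 5.98 CPM, with Cdh5 at 0, the 6 mural markers to 1.49 to 8.06, and the 6 muscle markers to 2.99 to 14.8, with Acta1 and Myh4 at 0. The 8 endplate markers summed to 47.8 to 94.0 CPM and the 8 marrow stroma markers to 179 to 229, among which Foxc1 was highest. The Schwann and neural list summed to 666 to 913 CPM, mostly from S100b, which chondrocytes also express, with Sox10 at 0. The osteoblast markers summed to 384 CPM in the 3-month control, 225 in the 3-month mutant, 387 in the 12-16-month control and 122 in the 12-16-month mutant library, so that they were higher in both control libraries. The fibroblast list had the highest sum of the 9 types in each library, at 5939, 4955, 2485 and 3237 CPM in that order. Pi16 was at 0, and 5 of its 10 genes were under 10 CPM. The osteoblast sums include Col1a1, of which 1 cell held 48.7% of the UMIs in the 3-month control and 75.6% in the 12-16-month control library. Gm42418, which overlaps ribosomal RNA sequence, was at 6093 CPM in the 3-month control, 26645 in the 3-month mutant, 12796 in the 12-16-month control and 3403 in the 12-16-month mutant library. It was highest in the 3-month mutant library, and its part in the ratios between libraries was not tested.

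By gene list, the hyaline cartilage genes had the highest summed level of the matrix lists, at 61401, 53682, 40780 and 56150 CPM in the control and mutant libraries at 3 months and then at 12-16 months. The cartilage surface list followed with 47953, 47126, 35276 and 48400 CPM, and Cytl1 is in both lists. Cilp, the cartilage intermediate layer protein, was at 8302 CPM in the 3-month control, 7429 in the 3-month mutant, 7546 in the 12-16-month control and 7289 in the 12-16-month mutant library, and was found in 92.6% of the cells. Chad, which encodes the leucine-rich cell-binding protein chondroadherin, was at 6242 to 9453 CPM over the libraries. Comp, a bridging protein of collagen fibrils, was at 4275 to 7609. Ecrg4, which encodes a secreted peptide precursor, was at 5312 CPM in the 3-month control, 4063 in the 3-month mutant, 5391 in the 12-16-month control and 12312 in the 12-16-month mutant library. Fn1, fibronectin, was at 3173, 3436, 12649 and 9328 CPM in the same order, with both 12-16-month libraries above both 3-month libraries, also at 8656 CPM in the 12-16-month control without the cell with most Fn1. Acan, the gated proteoglycan gene, was at 3576 to 4358 and Sox9 at 1059 to 1365. Together the genes of the leucine-rich proteoglycan list held 17653 CPM in the 3-month control, 19015 in the 3-month mutant, 27626 in the 12-16-month control and 31357 in the 12-16-month mutant library.

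Cells in which Prg4, Smoc2 or Cilp2 led the 3 gate genes differed in their matrix genes. Prg4 was the highest of the 3 in 684 cells, Smoc2 in 50 and Cilp2 in 31, and 14 cells had a tie. The Smoc2-led cells were 15, 15, 10 and 10 in the control and mutant libraries at 3 months and then at 12-16 months. The Cilp2-led cells were 19, 8, 0 and 4. Their median depths were 11338 UMIs for Prg4-led, 8205 for Smoc2-led and 10871 for Cilp2-led cells. The genes compared between them were chosen after their values were seen, and the comparison is a description with no test.

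In Smoc2-led cells Dcn was at 2433 CPM in the 3-month control, 2799 in the 3-month mutant, 1483 in the 12-16-month control and 1177 in the 12-16-month mutant library. In Prg4-led cells it was at 7170, 6701, 19019 and 19895 in the same order. The Smoc2-led cells were lower in each library, and they did not share the higher level of the Prg4-led cells at 12-16 months. Cilp, Comp, Cytl1 and Col2a1 were likewise lower in Smoc2-led than in Prg4-led cells in 4 of 4 libraries. Over all libraries Col2a1 was at 743 CPM in Smoc2-led, 2325 in Prg4-led and 8930 in Cilp2-led cells. Comp was at 1949, 6995 and 10597 in these groups, and Cilp at 2938, 8097 and 9618. The values of the Cilp2-led cells rest on the 3-month control library, which held 19 of the 31. There Comp was at 12817 CPM in Cilp2-led and 7527 in Prg4-led cells, but at 4920 against 6597 in the 3-month mutant and 6328 against 6462 in the 12-16-month mutant library. Col2a1 was higher in the Cilp2-led cells of these 3 libraries, at 11901 against 2622, 1649 against 1421 and 2463 against 1653 CPM.

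Apoe, the lipid carrier apolipoprotein E, went the other way. It was at 6422 CPM in the Smoc2-led cells of the 3-month control, 6359 in those of the 3-month mutant, 4602 in those of the 12-16-month control and 4314 in those of the 12-16-month mutant library. In the Prg4-led cells it was at 3792, 2908, 1384 and 1453. Alpl, the phosphatase that mineralizing cells use, was at 240, 682, 237 and 412 CPM in the Smoc2-led cells and at 9.08 to 10.9 in the Prg4-led cells. It was at 0 in the Cilp2-led cells. Acan was lower in Smoc2-led than in Prg4-led cells in 4 of 4 libraries, at 1333 to 2797 against 3611 to 4482 CPM. Chad was higher in the Smoc2-led cells of both 3-month libraries (7724 against 6687 CPM in control and 11749 against 9133 in mutant mice) and lower in those of both 12-16-month libraries (2977 against 6659 and 2039 against 8273). Over all libraries Sox9 was at 1153 CPM in Prg4-led, 1157 in Smoc2-led and 1194 in Cilp2-led cells.

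**Figure D2:**
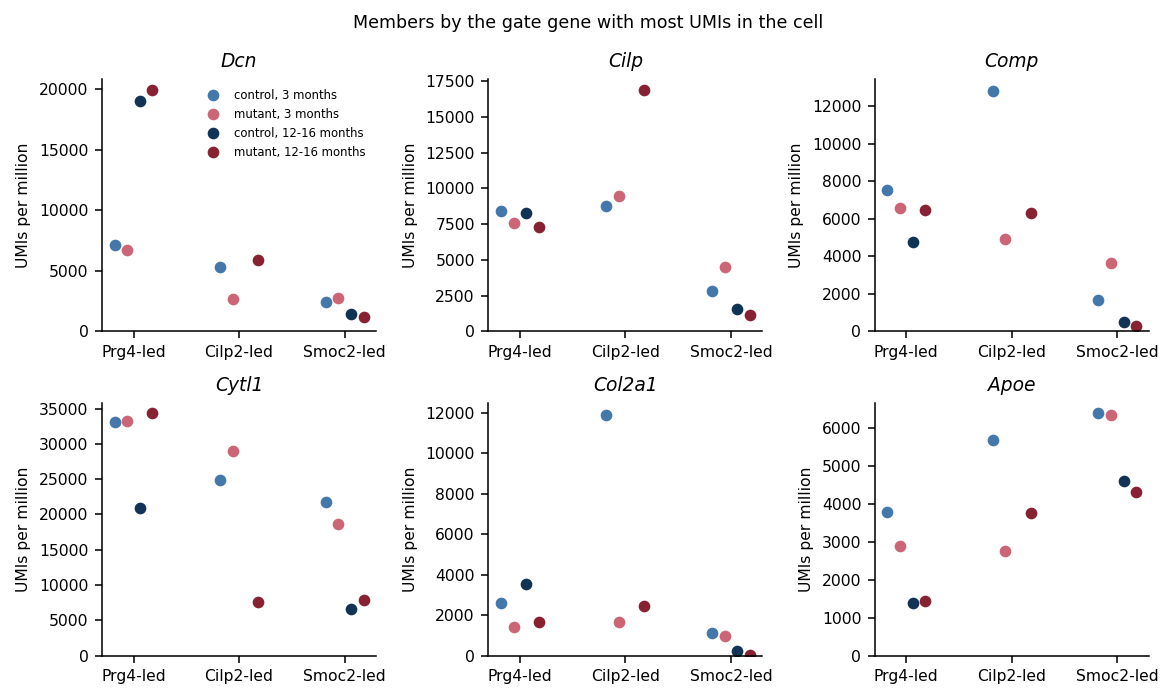
Level in CPM (vertical axis) of Dcn, Cilp, Comp, Cytl1, Col2a1 and Apoe in cells led by Prg4, Cilp2 or Smoc2, 1 point per library. Dcn in Smoc2-led cells lies between 1177 and 2799 and below the Prg4-led cells of the same library, Apoe lies above them, and the 12-16-month control library has no Cilp2-led cell.

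Against the Sfrp5/Adamtsl2 cells, the other class of gated chondrocytes with more than 10 cells, the Prg4/Smoc2/Cilp2 cells had more decorin, fibronectin, Comp and other secreted matrix proteins and less of several signaling genes. UMIs were summed per library and class and compared with edgeR's quasi-likelihood test and Benjamini-Hochberg adjustment, with the library as a block. The 16 genes of the gate were not tested. The classes were set in the same cells by gate genes, so that a gene that varies with a gate gene had to differ, and the test shows only how alike the libraries were. Of 7837 genes, 72 were higher (0.919%) and 38 lower (0.485%) in the Prg4/Smoc2/Cilp2 cells at an adjusted p under 0.05. Without scaling factors the split was 59 higher and 69 lower, since scaling moved the median log2 difference of all genes from -0.12 to 0.11. Leaving out a library gave 6 higher and 4 lower genes without the 3-month control, 27 and 17 without the 3-month mutant, 36 and 28 without the 12-16-month control and 23 and 23 without the 12-16-month mutant library. The Sfrp5/Adamtsl2 cells had a lower median depth, 8073 against 10822 UMIs, and only 4 and 5 cells in the 12-16-month libraries.

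Dcn had the smallest adjusted p of the genes named. In the Sfrp5/Adamtsl2 cells it was at 562 CPM in the 3-month control, 181 in the 3-month mutant, 488 in the 12-16-month control and 1202 in the 12-16-month mutant library, against 6948, 6103, 17034 and 18805 in the Prg4/Smoc2/Cilp2 cells. The groups did not overlap, and the difference was 4.91 ± 0.41 on the log2 scale (SE, adjusted p = 2.63e-29, edgeR). Dcn kept its call under every alternative run. Fn1 was at 426 to 1593 CPM in the Sfrp5/Adamtsl2 cells of the 4 libraries and was 3.01 ± 0.39 higher on the log2 scale in the Prg4/Smoc2/Cilp2 cells (adjusted p = 8.83e-12, edgeR). Fn1 and Comp kept their calls with each library left out (adjusted p up to 0.0215 and 0.0171, edgeR). Comp was 2.70 ± 0.38 higher (adjusted p = 2.16e-10, edgeR), Ecrg4 2.90 ± 0.38 higher (1.32e-11) and Col2a1 2.11 ± 0.36 higher (1.53e-06). Cytl1 was at 9370 to 20008 CPM in the Sfrp5/Adamtsl2 cells and 1.40 ± 0.36 higher on the log2 scale in the Prg4/Smoc2/Cilp2 cells (adjusted p = 0.00809, edgeR). Without the 3-month control library Ecrg4, Col2a1 and Cytl1 lost their calls (adjusted p = 0.142, 0.238 and 0.166, edgeR), and Cytl1 also did without the 3-month mutant (0.191) and the 12-16-month control library (0.138). Without the library block Comp, Col2a1 and Cytl1 had adjusted p values of 0.157, 0.0664 and 0.250 (edgeR), and with the stricter gate Col2a1 and Cytl1 had 0.0852 and 0.656.

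By gene list, 8 of 14 tested genes of the cartilage surface list were higher, with a median log2 difference of 1.29 against 0.11 for all genes. Cilp (2.47) and the adhesive glycoprotein gene Thbs1 (3.33) kept their calls under every alternative. Abi3bp (1.34) and the extracellular superoxide dismutase gene Sod3 (1.57) were not called with any 1 of the 4 libraries left out (adjusted p up to 0.316 and 0.227, edgeR). The metalloproteinase inhibitor gene Timp3 (1.25) kept its call only with the 3-month mutant library left out (up to 0.998 with another left out). With 1 library left out 2 to 3 genes of the list were called.

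Of 11 leucine-rich proteoglycan genes, 5 were higher, with a median log2 difference of 0.70. These were Dcn, Fmod (3.37), Lum, Chad (1.5) and Prelp (1.18). Fmod kept its call with each library left out in which it was tested, but lost it with DESeq2 (adjusted p = 0.134). Prelp lost its call with any 1 of the 4 libraries left out (adjusted p up to 0.592, edgeR), and Chad lost it with any but the 12-16-month control library left out (up to 0.790). Of 22 hyaline cartilage genes, 4 were higher, namely Comp, Col2a1, Cytl1 and Fibin (2.65), with a median of 0.45, and 2 to 4 were called with 1 library left out. Of 6 complement and inflammation genes, 4 were higher, namely C3, Cxcl14, Lbp and Chil1. Cxcl14 kept its call in the 3 fits with a library left out in which it was tested, and under 8 of 10 alternatives in all. Lbp lost its call without either mutant library (adjusted p up to 0.109, edgeR), and Chil1 lost it without the 3-month control and the 12-16-month mutant library (up to 0.191). C3 was not tested with any library left out. C3, the central complement protein, had 2 UMIs in the Sfrp5/Adamtsl2 cells, and the ratio of the summed levels was 28.9 (95% interval 7.98 to 239). Over all lists 45 genes were called, of which 22 lost the call without at least 1 library, 21 were not tested with at least 1 library left out, and 13 kept it under every alternative in which they were tested. Of 12 tendon and annulus genes, 4 were higher and 1 lower, with a median of 0.93, and at most 1 was higher with a library left out.

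The lower genes included regulators of bone morphogenetic protein (BMP) signaling. Bmp3, a BMP that can inhibit other BMPs, was at 95.3 CPM in the Sfrp5/Adamtsl2 cells of the 3-month control, 192 in those of the 3-month mutant, 0 in those of the 12-16-month control and 38.8 in those of the 12-16-month mutant library. In the Prg4/Smoc2/Cilp2 cells it was at 5.06, 4.98, 2.69 and 1.55, and the log2 difference was -4.26. The 12-16-month control library, with 4 Sfrp5/Adamtsl2 cells, did not show it. The BMP antagonist gene Nog was lower as well (log2 difference -1.85), and the antagonist gene Grem1 was higher (1.86), so that 1 of 25 tested genes of the BMP and TGF-β list was higher and 2 were lower. Bmp3 and Nog kept their calls with each library left out in which they were tested, while Grem1 lost it without the 3-month control (adjusted p = 0.799, edgeR), the 3-month mutant (0.0565) and the 12-16-month mutant library (0.246). Of 9 hypertrophy and ossification genes, Ibsp (2.58), a bone sialoprotein, and Ank were higher and Alpl (-2.57) was lower. The call of Ibsp was lost with DESeq2 (adjusted p = 0.999) and without the library block (0.269, edgeR). Alpl lost its call without the 3-month control library (adjusted p = 0.327, edgeR), and Ank did without that library and without either 12-16-month library (up to 0.562). In the Ras and ERK feedback list edgeR called 0 of 11 genes, 2 of which were higher at an unadjusted p under 0.05, and DESeq2 called 0. Of the genes chosen after their values were seen, the lipocalin gene Apod (-3.84) and the Hedgehog-binding protein gene Hhip (-2.39) were lower under every alternative in which they were tested.

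The Chrdl2/Meox2/Htr1f class had 10 cells with 109316 UMIs in 3 of the libraries, which limited that comparison. Of the same 7837 genes, 49 were higher in the Prg4/Smoc2/Cilp2 cells (0.625%) and 3 lower (0.0383%, Kcnj6, Lcn2 and Magi2, named for being the only 3). The median log2 difference of all genes was 0.46 and without scaling factors 0.00, with 21 higher and 19 lower. Leaving out a library gave 2 higher and 0 lower genes without the 3-month control, 31 and 6 without the 3-month mutant, 8 and 1 without the 12-16-month control and 16 and 1 without the 12-16-month mutant library. Dcn was again higher, by 5.21 ± 0.50 on the log2 scale (adjusted p = 7.74e-22, edgeR), against 970, 27.3 and 277 CPM in the Chrdl2/Meox2/Htr1f cells of the 3-month control, 3-month mutant and 12-16-month control libraries. Ecrg4 was higher by 7.59 ± 0.64 (adjusted p = 5.88e-29, edgeR), Col2a1 by 3.09 ± 0.44 (4.86e-09), Fn1 by 2.38 ± 0.44 (5.47e-05) and Comp by 2.18 ± 0.43 (0.000339). Dcn and Ecrg4 kept their calls under every alternative. Without the 3-month control library Col2a1, Fn1 and Comp lost theirs (adjusted p = 0.239, 0.406 and 0.351, edgeR), as did Fn1 and Comp without the 12-16-month control library (0.674 and 0.665). Of 11 leucine-rich proteoglycan genes 5 were higher, with a median of 1.53 against 0.46, and 1 to 3 with 1 library left out. Fmod, which encodes the collagen-binding fibromodulin, had no UMI in the Chrdl2/Meox2/Htr1f cells and was at least 11.0-fold higher in the Prg4/Smoc2/Cilp2 cells, against a floor of 3 counts over the class.

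Both comparisons shared the Prg4/Smoc2/Cilp2 sums. In both, no gene was lower, and the genes higher in both were ranked by the smaller of the 2 differences. Serpine2, Timp3 and Prelp came after the first 15. These 15 were Dcn, Ecrg4, Fn1, Comp, Col2a1, Cytl1, Fmod, Enpp2, Ibsp, Timp1, Fbln1, Lum, Dscam, Clec3a and Ccdc80. Most of these calls did not hold under every alternative in which the gene was tested. Dcn and Ecrg4 kept the call against the Chrdl2/Meox2/Htr1f cells under 11 of 11, Col2a1 under 9 of 11 and Fmod under 9 of 10. Fn1 and Comp kept it under 6 of 11, Ibsp under 6 of 10, Cytl1 under 5 of 11, Dscam under 5 of 10 and Clec3a under 4 of 11. Fbln1 kept it under 3 of 7, Enpp2, Lum and Timp1 under 2 of 7 and Ccdc80 under 1 of 11. Against the Sfrp5/Adamtsl2 cells Dcn and Fn1 kept it under 11 of 11 and Lum, Timp1 and Fbln1 under 7 of 7, and Ccdc80, the lowest, under 5 of 11. Several genes rested on few counts in the other class. Timp1, an inhibitor of metalloproteinases, had 3 UMIs in the Sfrp5/Adamtsl2 cells, with a ratio of summed levels of 38.2 (95% interval 13 to 185). Fbln1, which encodes the matrix protein fibulin 1, had 3 UMIs there (33, 11.3 to 160). Lum, lumican, had 1 UMI there (33.6, 6.0 to 1328). Against the Chrdl2/Meox2/Htr1f cells, Lum, Timp1 and Ccdc80 were no longer called without the deepest cell of each library (adjusted p = 0.279, 0.338 and 0.0661, edgeR).

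**Figure D3:**
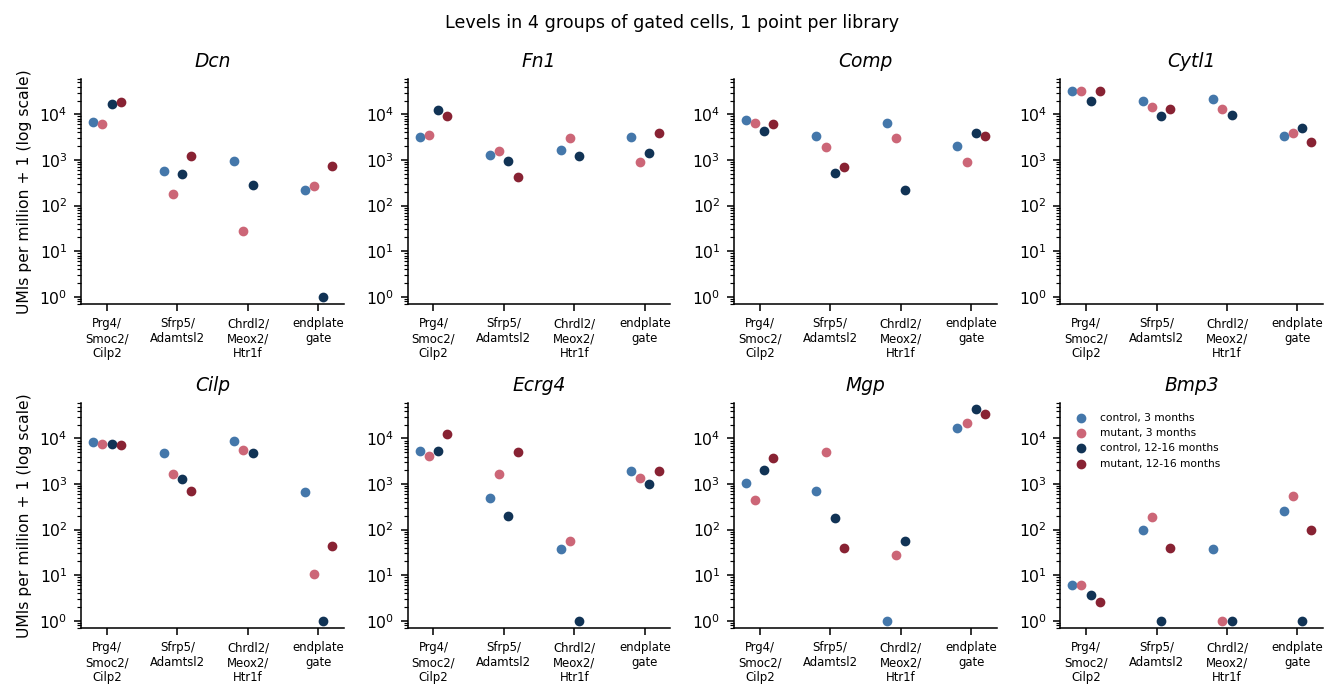
Level in CPM plus 1 (log axis) of 8 genes in the Prg4/Smoc2/Cilp2, Sfrp5/Adamtsl2, Chrdl2/Meox2/Htr1f and endplate-gated cells, 1 point per library. Dcn lies between 6103 and 18805 in the Prg4/Smoc2/Cilp2 cells and at or below 1202 in the other classes, and Mgp is at 16906 to 43713 in the endplate-gated cells and at 439 to 3764 in the Prg4/Smoc2/Cilp2 cells.

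A comparison chosen after the class sizes were seen was with the 76 cells that met the depth and Sox9 and Acan limits but had at least 3 UMIs of Zfp804b and Dab1, the genes used here to gate out endplate cells. They were 16 control and 52 mutant cells at 3 months and 1 control and 7 mutant cells at 12-16 months, with a median depth of 13431 UMIs. Of 8525 genes, 927 were higher (10.9%) and 510 lower (5.98%) in the Prg4/Smoc2/Cilp2 cells. Without scaling factors the split was 656 higher and 1015 lower, since the median log2 difference of all genes was then -0.21 and not 0.12. Leaving out a library gave 277 higher and 212 lower genes without the 3-month control, 112 and 123 without the 3-month mutant, 478 and 528 without the 12-16-month control and 475 and 423 without the 12-16-month mutant library.

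The Prg4/Smoc2/Cilp2 cells had more of the cartilage surface genes than the endplate-gated cells and less of the hyaline cartilage collagens. Of 14 surface genes 11 were higher and Vit was lower, with a median log2 difference of 4.58. With 1 library left out 6 to 9 of them were tested and 3 to 6 higher. Cytl1 was higher by 3.36 ± 0.22 (adjusted p = 3.71e-10, edgeR), at 2481 to 5141 CPM in the endplate-gated cells. Cilp was higher by 7.20, Clu, the secreted chaperone clusterin, by 4.22 and Abi3bp by 5.60. Of 24 hyaline cartilage genes 3 were higher, namely Cytl1, Comp (1.82) and Fibin (3.4), and 14 were lower, with a median of -1.03. Col2a1 was lower by a log2 difference of -0.88 ± 0.22 (adjusted p = 0.00671, edgeR), a call lost without the 3-month mutant (0.0527) and the 12-16-month mutant library (0.0698). Comp lost its call without the 3-month mutant library (0.0557). Col9a1 was at 464 to 634 CPM in the endplate-gated cells and lower in the Prg4/Smoc2/Cilp2 cells (-4.52), as was Matn3, a matrilin of growth cartilage (-4.88).

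Of 11 tested tendon and annulus genes 7 were higher, among them Scx (3.62) and Angptl7 (6.02), with a median log2 difference of 3.04 against 0.12 for all genes. With 1 library left out 4 to 6 of them were tested and at most 1 was higher. Of 6 tested genes of the notochord list 2 were higher and 1 lower. Cd24a was among the higher ones (1.49, adjusted p = 0.00162, edgeR), a call lost without the 3-month mutant library (0.131).

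Genes of hypertrophy and ossification were mostly lower or not called. Of 11 tested, Runx2 (-4.93) and Runx3 (-7.43), transcription factors of chondrocyte hypertrophy, Pth1r (-2.45) and the mineralization inhibitor gene Mgp (-3.91) were lower, and Spp1, osteopontin, was higher (4.07). Among signaling genes, the growth factor genes Bmp2 (4.67) and Bmp6 were higher and Bmp3 lower (-5.65). Bmp6 was at 153 to 433 CPM in the Prg4/Smoc2/Cilp2 cells and had 1 UMI in all endplate-gated cells, with a ratio of summed levels of 322 (95% interval 57.8 to 12740). Gdf5, a growth factor of joints, and Gdf6 had no UMI in the endplate-gated cells and were at least 10.9-fold and 6.75-fold higher, against a floor of 3 counts over the class. The collagen cross-linking enzyme gene Lox and the tenascin gene Tnxb, also without a UMI there, were at least 15.8-fold and 16.3-fold higher. Of 18 glycolysis and hypoxia genes 17 were higher with a median of 1.97, among them Gapdh (1.72) and Ldha (1.61), but without the 3-month mutant library 3 of 13 were, with Gapdh at an adjusted p of 0.0718 and Ldha at 0.171 (edgeR). Of 23 immediate early and stress genes 15 were higher, among them Fos (1.52) and the metallothionein gene Mt1 (5.54), and 6 of 21 without the 3-month mutant library.

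Within the Prg4/Smoc2/Cilp2 cells, those with the highest and the lowest Prg4 share of their RNA differed in other genes. Over all libraries Prg4 was at 171 CPM in Smoc2-led and 30284 in Prg4-led cells. A split by this share is therefore not independent of the split by leading gate gene. The cells of each library were ranked by this share and split into 3 groups of equal size, a split made after the data were seen, and CPM were taken over the UMIs other than Prg4. This is a description with no test, and depth moved with it: the median was 10480 UMIs in the lowest and 14717 in the highest group in the 3-month control, 9115 and 12896 in the 3-month mutant, 8680 and 12348 in the 12-16-month control and 6455 and 8031 in the 12-16-month mutant library. Its part in the pattern was not tested. Of 3411 genes with at least 20 UMIs in each library, 326 were higher in the highest than in the lowest group in 4 of 4 libraries and 484 lower. The median log2 ratio of all genes was -0.04, and only 3 and 4 genes were at least 2-fold higher or lower in each library. How many genes would share a direction in 4 libraries by chance was not tested.

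Dcn was at 3532 CPM in the lowest and 10268 in the highest group of the 3-month control, 2787 and 8653 of the 3-month mutant, 6364 and 21492 of the 12-16-month control and 10605 and 25843 of the 12-16-month mutant library. In each library the highest group was above the lowest by more than 2-fold. The log2 ratio was 1.08 to 3.18 for Ecrg4, 0.59 to 1.27 for Cytl1, 0.81 to 1.10 for Clu, 0.92 to 1.16 for Timp3 and 0.64 to 0.96 for Vcan, the large proteoglycan versican. Of 11 surface genes 5 were higher in each library. Alpl (-5.26 to -2.65), the respiratory chain subunit gene Cox4i2 (-2.15 to -1.05), Mkx (-1.23 to -1.06), Apoe (-1.87 to -0.70) and Mef2c (-1.40 to -0.81) were lower. Of 23 immediate early and stress genes 15 were lower in each library, with Fos at -1.59 to -0.24, and 2 were higher. Cilp and Comp had no uniform direction, with log2 ratios of -0.04 to 1.07 and -0.02 to 1.21.

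**Figure D4:**
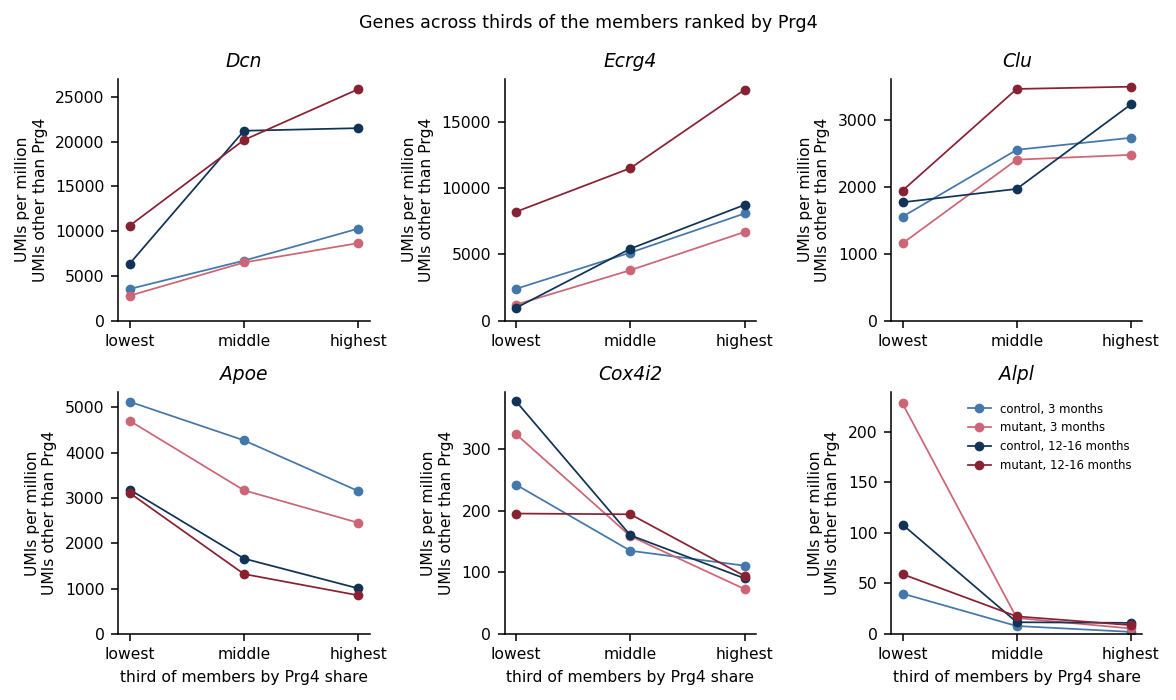
Level in CPM over the UMIs other than Prg4 (vertical axis) of Dcn, Ecrg4, Clu, Apoe, Cox4i2 and Alpl in the lowest, middle and highest group of cells by Prg4 share, 1 line per library. Dcn is at 2787 to 10605 in the lowest and 8653 to 25843 in the highest groups, and Apoe, Cox4i2 and Alpl are lower in the highest than in the lowest group of each library.

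The share of gated chondrocytes that were Prg4/Smoc2/Cilp2 cells was 84.6% in the 3-month control (95% exact interval 81.0 to 87.8%), 86.4% in the 3-month mutant (80.8 to 90.8%), 91.2% in the 12-16-month control (81.8 to 96.7%) and 93.6% in the 12-16-month mutant library (88.8 to 96.7%). The intervals of control and mutant overlapped at both ages. With each cell thinned to 4000 UMIs, which left out 13, 2, 7 and 24 shallower cells in that order, the shares were 82.4%, 82.7%, 88.5% and 96.6%. Of all cells that passed the depth limits, the Prg4/Smoc2/Cilp2 cells were 53.8% (50.1 to 57.5%), 35.3% (31.1 to 39.8%), 45.9% (37.3 to 54.7%) and 38.0% (33.3 to 42.8%) in the same order. The control libraries had the higher share at both ages, and the intervals did not overlap at 3 months and did at 12-16 months. Both shares were taken after digestion and the tdTom sort, whose part in them was not tested.

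Mutant and control cells were compared at each age by the ratio of summed levels, for genes with at least 50 UMIs in both libraries together. At 3 months 9668 genes were compared, of which 166 were at least 2-fold higher (1.72%) and 339 at least 2-fold lower (3.51%) in the mutant library. At 12-16 months 5414 genes were compared, with 100 higher (1.85%) and 116 lower (2.14%). With TMM scaling, which moved the log2 ratios at 12-16 months by 0.10, these became 131 higher and 81 lower, and the split at 3 months was 162 and 340. Of 5413 genes compared at both ages, 20 were at least 2-fold higher at both and 15 lower at both, while 11 went from higher to lower and 9 from lower to higher. The comparisons at the 2 ages share no library.

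Tsc22d3, Fkbp5, Zbtb16, Timp4 and Angptl7 were among the genes higher in both mutant libraries. Tsc22d3, which encodes the glucocorticoid-induced leucine zipper, was at 296 CPM in the 3-month control, 776 in the 3-month mutant, 215 in the 12-16-month control and 611 in the 12-16-month mutant library. Both mutant libraries were above both control libraries, by 2.62 times at 3 months (95% interval 2.45 to 2.81) and 2.84 times at 12-16 months (2.40 to 3.39). The gene was found in 158 of 171 mutant and 344 of 386 control cells at 3 months, and in 134 of 160 and 45 of 62 at 12-16 months. Fkbp5, a co-chaperone of the glucocorticoid receptor, was 7.35 times (5.60 to 9.73) and 6.28 times (2.90 to 16.1) the control level at 3 and 12-16 months. Zbtb16, a transcription factor, was at 3.16 times (2.70 to 3.71) and 2.65 times (1.76 to 4.11). The secreted proteins Timp4, at 2.97 times (2.69 to 3.27) and 2.92 times (2.09 to 4.17), and Angptl7, at 2.80 times (2.19 to 3.56) and 4.43 times (2.42 to 8.89), were higher as well.

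Of the other genes higher at both ages, AA465934 had few control counts and Fabp4 came from few cells. AA465934, a noncoding transcript on the chromosome of Nf1 and 3.71 Mb from it, had 125 UMIs in the 3-month mutant and 14 in the 3-month control library, and 78 and 1 in those at 12-16 months. It was found in 81 of the mutant cells at 3 months and 58 at 12-16 months, against 14 and 1 of the control cells. The mutant level was 25.5 times the control level (14.6 to 48.0) at the earlier and 45.1 times (7.86 to 1804) at the later age. Fabp4, a fatty acid binding protein, was 11.8 times (6.75 to 21.8) and 9.16 times (4.05 to 25.6) the control level, from 19 mutant cells at each age. Gm8797 was at 40.4 times (27.5 to 61.6) and 5.49 times (2.37 to 15.6).

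**Figure D5:**
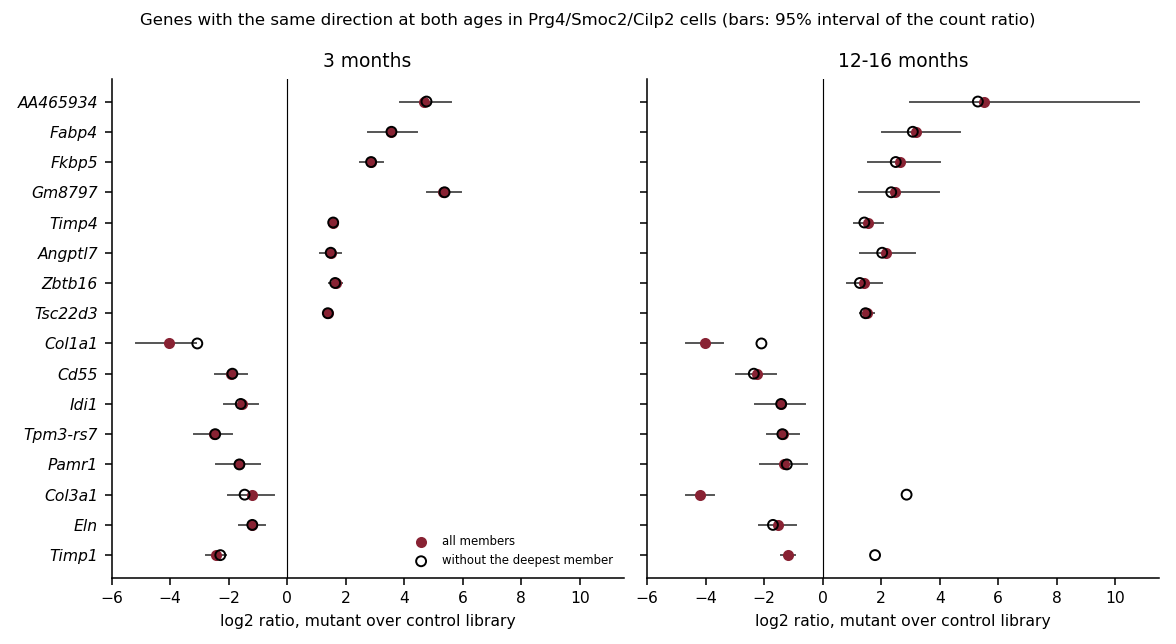
Log2 ratio of the mutant to the control level of 16 genes at 3 and at 12-16 months, with 95% counting intervals. Open circles give the ratio without the deepest cell of each library. Tsc22d3, Fkbp5 and Zbtb16 lie above 0 at both ages, and the ratios of Col3a1 and Timp1 at 12-16 months change sign without the deepest cell. For Col3a1 the open circle at 12-16 months is against a floor of 3 control counts.

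Col1a1, Col3a1, Timp1, Eln and Cd55 were among the genes lower in both mutant libraries, but single cells carried much of this for the first 3. Col1a1, the main collagen of bone and tendon, had 9 UMIs in the 3-month mutant against 423 in the 3-month control library and 25 against 234 at 12-16 months. A single cell held 48.7% and 75.6% of the control UMIs. The log2 ratio without the deepest cell of each library was -3.07 at 3 and -2.10 at 12-16 months. Col3a1, a fibrillar collagen, was 0.43 times and 0.055 times the control level, but its 432 UMIs in the 12-16-month control library all came from 1 cell. Without the deepest cell of each library the control library had no Col3a1 UMI left, and a floor of 3 counts was used. The log2 ratio at 12-16 months was then 2.87 and not -4.19. With the top Col3a1 cell of each library left out it was smaller, though still positive, against the same floor. Timp1 was at 0.19 and 0.44 times the control level, and at 12-16 months 88.3% of the control UMIs were in 1 cell. Without the deepest cell of each library the log2 ratio there was 1.79 and not -1.18. The deepest mutant cell held only 1.20% of the Timp1 UMIs of its library. Without the cell with most Timp1 in each library the log2 ratio stayed negative. Eln, elastin, at 0.44 and 0.34 times, and Cd55, an inhibitor of complement, at 0.27 and 0.21 times, were lower too, and the log2 ratio of Cd55 at 12-16 months was -1.61 without the top cell of each library. The osteoblast markers summed higher in both control libraries, but this sum includes the same Col1a1 counts and is not a separate observation. Their part in these ratios was not tested.

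At 3 months 6 of 24 hyaline cartilage genes were at least 2-fold lower in the mutant library and none higher, with a median log2 ratio of -0.47 against -0.03 for all genes. At 12-16 months none of 21 were lower and 1 was higher. Col2a1 was 0.48 times the control level at 3 months and 0.51 times at 12-16 months, but without the cell with most of its UMIs in each library the log2 ratio at 12-16 months was 0.17 and not -0.98. Dcn was at 0.88 and 1.10 times and Prg4 at 0.98 and 1.17 times the control level. Of the Ras and ERK feedback genes, which report on signaling that neurofibromin limits, 2 of 15 were at least 2-fold lower and none higher at 3 months, and none of 10 differed by 2-fold at 12-16 months. Their median log2 ratio at 3 months was 0.19 against -0.03 for all genes, with 10 of 15 above 0. At 12-16 months it was -0.06 against -0.04, with 4 of 10 above 0. Spry2, a feedback inhibitor of Ras and ERK signaling, was 1.98 and 1.16 times the control level. Thbs1 was at 4.21 times (3.98 to 4.46) and 1.53 times (1.35 to 1.73), and the metallothionein gene Mt2 at 2.97 and 2.16 times (log2 ratio 1.76 at 12-16 months without the top cell of each library). Several large ratios at 3 months came from 1 control cell: 98.3% of 784 UMIs of the collagenase gene Mmp13 and 91.1% of 381 UMIs of the chemokine gene Cxcl12 were in single cells.

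At 12-16 months the cells had more Dcn and more of several complement and acute phase genes than at 3 months. These comparisons use the same 4 libraries as those of genotype. In control mice 9275 genes were compared, of which 331 were at least 2-fold higher (3.57%) and 425 lower (4.58%) at 12-16 months. With TMM scaling, which moved these log2 ratios by -0.12, 227 were higher and 546 lower. In mutant mice 7078 were compared, with 163 higher (2.3%) and 161 lower (2.27%). Of 7076 genes compared in both, 45 were higher in both and 30 lower in both. Dcn was 2.45 times the 3-month level in control mice (95% interval 2.40 to 2.50) and 3.08 times in mutant mice (3.02 to 3.15). Fn1 was at 3.99 times (3.89 to 4.09) and 2.71 times (2.64 to 2.80), and 1 cell held 38.2% of its UMIs in the 12-16-month control library. Of 11 leucine-rich proteoglycan genes, 4 were at least 2-fold higher and 2 lower in control mice, and 4 higher and none lower in mutant mice. Without the deepest cell of each library 3 were higher and 3 lower in control mice, and 4 and none in mutant mice.

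Serpina3n, an acute phase protease inhibitor, was at 58.8 CPM in the 3-month control, 82.7 in the 3-month mutant, 1012 in the 12-16-month control and 710 in the 12-16-month mutant library. It was found in 37 of 62 control and 96 of 160 mutant cells at 12-16 months, against 130 of 386 and 51 of 171 at 3 months. The ratio was 17.2 (15.1 to 19.6) in control and 8.59 (7.27 to 10.2) in mutant mice. C3 was at 7.76 times (6.49 to 9.28) and 3.49 times (2.86 to 4.27) the 3-month level, C4b, a complement protein, at 3.38 and 9.43 times, and Lcn2, the iron-sequestering lipocalin 2, at 11.9 and 2.82 times. Of 7 complement and inflammation genes, 4 were at least 2-fold higher and 2 lower in control mice, and of 6 in mutant mice 4 were higher and none lower. F13a1, a transglutaminase subunit, was at 5.69 times (4.93 to 6.56) and 25.1 times (17.6 to 37.1). Gdf5 was at 3.61 and 3.77 times, with a log2 ratio of 1.14 in control mice without the top cell of each library.

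Other genes higher at 12-16 months came from few cells. Ltbp2, a protein of elastic fibers, was 105 times (55.6 to 225) and 14.7 times (6.75 to 38.0) the 3-month level, but was found in 3 control and 5 mutant cells at 12-16 months, with 95.6% and 83.3% of the UMIs in 1 cell. Without the deepest cells its log2 ratio in control mice was 2.34. Lum was at 8.65 times (7.0 to 10.7) and 8.42 times (5.75 to 12.7), and the deepest cell held 67.0% of its UMIs in the 12-16-month control library, without which the log2 ratio was 1.87. Among the lower genes, Cnmd, which encodes the angiogenesis inhibitor chondromodulin, was at 0.38 and 0.30 times and Timp4 at 0.39 and 0.39 times the 3-month level in control and mutant mice. Dscam, a cell adhesion gene, was at 0.18 and 0.27 times, and F3, tissue factor, at 0.13 and 0.28 times. Of the gate genes, Smoc2 was at 1.79 times (1.63 to 1.95) and 1.69 times (1.54 to 1.85), which is a description since it chose the cells.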

How the data were processed

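Sorted tdTom+ cells of the spine had been sequenced in droplets (10x, 3′ end), 1 library for each of 4 conditions. UMI counts per gene and cell were deposited by the authors, made with Cell Ranger 8.0.0 on mm10 with a tdTomato sequence, and were not normalized. The correction of free RNA with SoupX named in the methods was not repeated. Gene coordinates are those of GRCm38, in which 32235 of 32286 listed genes were matched by identifier.

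Cells were chosen by the UMI limits given above, which with the gene lists were set with earlier results of these data known. Counts were summed per library and class and divided by the summed UMIs (CPM). The 11 sums of 3 classes (12 had been planned, but the Chrdl2/Meox2/Htr1f class has no cell in the 12-16-month mutant library) were fitted with edgeR 4.0.16 in R 4.3.3, with the class and the library as terms, for genes with at least 10 UMIs in at least 4 sums, and the 16 gate genes were left out. The comparison with endplate-gated cells used 8 sums. The scripts recovered genes changed in simulated data. These data had the same spread for every gene and no difference between libraries other than depth. They therefore do not measure how many calls in the real sums are wrong. Conditions, with 1 library each, were compared by ratios with conditional binomial intervals at 95%, for genes with at least 50 UMIs. A count of 0 was replaced by a floor of 3 counts. Shares have Clopper-Pearson intervals. These intervals cover counting error only, and cells of a library are not replicates. Doublets were called with Scrublet in scanpy 1.11.5 and kept: 4 of the 779 cells were called. One gene of the lists is not reported here and was left out of their counts.

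Named genes were those ranked first among the genes called in both planned class comparisons, and members of the gene lists. Others had the largest ratios in the same direction at both ages or in both genotypes, or are said to have been chosen after their values were seen. Alternatives were DESeq2 1.42.0, TMM or no scaling, no library block, no filter, other minimum counts, equal weight for every cell, thinned cells, a stricter gate, doublets left out and each library left out. Alternatives added after the data were seen were a minimum of 10 gate UMIs, the deepest cell of each library left out, and the cell with most UMIs of a gene left out.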

Additional observations from a re-analysis of the deposited data

Results flagged for a closer look

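For 4 genes of the lists, the mutant to control ratio in the Prg4/Smoc2/Cilp2 cells was at least 2-fold in opposite directions at 3 and at 12-16 months, and for 2 genes the ratio of 12-16 to 3 months was so in control and mutant mice. With 1 library per condition these differences were not tested. Igfbp5, which encodes a binding protein of insulin-like growth factors, had a log2 ratio of mutant to control of at most -3.68 at 3 months, where the 0 UMIs of the mutant library were set to a floor of 3 counts, and of 2.67 at 12-16 months. It had 110 UMIs in 9 cells of the 3-month control, none in the 3-month mutant, 26 in 3 cells of the 12-16-month control and 286 in 10 cells of the 12-16-month mutant library, with 44.5%, 69.2% and 49.0% of these UMIs in 1 cell. Epyc, a leucine-rich proteoglycan of cartilage, was at -4.19 and 1.70, from 23, 1, 2 and 11 cells in the same order. Mia, a secreted cartilage protein, was at -1.44 and 1.30, and Fbln2, a fibulin, at 1.21 and -1.13. The log2 ratio of 12-16 to 3 months was 1.30 in control and -1.46 in mutant mice for Alpl, and 1.38 and -1.10 for Egln3, a hydroxylase of the hypoxia response.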

How the results depend on the processing

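The library was kept as a replicate block in the class comparisons. Against the Sfrp5/Adamtsl2 cells the 72 higher and 38 lower genes became 28 and 22 without the block and 18 and 19 with DESeq2, the lower genes became 69 without scaling factors and 23 with a stricter gate, and leaving out 1 library gave 6 to 36 higher and 4 to 28 lower. Against the Chrdl2/Meox2/Htr1f cells the 49 higher genes became 7 without the block, 7 with DESeq2, 21 without scaling factors and 17 with the stricter gate, and 2 to 31 with 1 library left out. The 3 lower genes became 19 without scaling factors, 0 without the block (73 at an unadjusted p under 0.05, edgeR), 0 with the stricter gate (46 unadjusted, edgeR) and 0 to 6 with 1 library left out (45 unadjusted for the count of 0, edgeR). Against the endplate-gated cells leaving out 1 library gave 112 to 478 higher and 123 to 528 lower genes, and the 510 lower genes became 1015 without scaling factors and 813 without a filter on low counts. With the stricter gate the share of Prg4/Smoc2/Cilp2 cells in the 3-month control library was 80.5%. With a minimum of 20 in place of 50 UMIs, mutant against control gave 321 higher and 691 lower genes at 3 months and 313 and 399 at 12-16 months, and 12-16 against 3 months gave 671 and 714 in control and 419 and 379 in mutant mice. With every cell weighted equally 498 genes were higher at 12-16 months in control mice. Directions turned for Lox against the Chrdl2/Meox2/Htr1f cells with the stricter gate (log2 -0.36). For Ptch1 there they turned without scaling factors (-0.10) and without the 3-month control library (-0.37, and up to 0.59 with another library left out). At 12-16 months Col3a1 turned without the deepest cells (2.87) and without its top cell (1.08), both against a floor of 3 counts in the control library. Timp1 turned there without the deepest cells (1.79) but not without its top cell. Dcn was called in both planned class comparisons under every alternative, with an adjusted p between 2.02e-50 and 0.000123 against the Sfrp5/Adamtsl2 cells and between 2.17e-37 and 0.000535 against the Chrdl2/Meox2/Htr1f cells (edgeR or DESeq2). The cause of these changes was not tested, except that fewer libraries leave fewer genes to test, 1983 without the 3-month control library. The 10 Chrdl2/Meox2/Htr1f cells and the 62 Prg4/Smoc2/Cilp2 cells of the 12-16-month control library set the lowest depth.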
